A study of Drosophila melanogaster with 9 samples.

Results

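Transcribed stretches of the S2 genome with a low density of the marks usually found over transcribed chromatin were examined in 500-bp tiles. A tile was taken as transcribed without active marks when its S2 RNA density was 10 or more and its S2 H3K4me3, H3K36me3 and RNA polymerase II (Pol II) densities were all under 7. Density means reads per kb per 1000000 kept reads of the library. Of 240738 tiles on 6 chromosome arms, 34217 were transcribed (14.2% of tiles tested), and 762 of these were chosen by the rule (2.23%, 95% Wilson interval 2.08 to 2.39). These 762 are called unmarked transcribed tiles here. Because they were selected on RNA, H3K4me3, H3K36me3 and Pol II of S2 cells, values of those 4 libraries inside the tiles describe the selection and are not findings. H3K27me3 of S2 cells and the bam testis libraries did not enter the selection. The tiles on either side did not decide whether a tile was chosen, but some were chosen themselves. Only 501 of the 762 tiles had no chosen tile beside them. Values of neighbours in those 4 libraries are therefore partly set by the rule.

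The series held 9 libraries from 2 kinds of sample, with 1 library for each target and no replicates. S2 is an embryo-derived, phagocyte-like cultured line of Drosophila melanogaster, and its libraries were ChIP-seq for H3K4me3, H3K36me3, Pol II and H3K27me3 plus 1 RNA-seq library. The bam testis libraries were ChIP-seq with the same 4 antibodies on about 200 pairs of testes from flies with 2 mutant alleles of bag of marbles (bam1/bam114-97), whose germ cells stop before spermatocyte differentiation. Whole testes were used, so germline stem cells, spermatogonia and somatic cells of the testis are mixed, and RNA from bam testis was not analysed here. With 1 library for each target, no test between samples or sets of tiles was made. Intervals are 95% Wilson intervals for shares and exact Poisson intervals for densities, and a count of 0 is given with the share that 3 counts would make. Both cover the error of counting alone, and PCR copies cannot be recognised in libraries made without molecular identifiers. The Wilson intervals also take tiles as independent. Neighbouring tiles can share a transcribed stretch or an H3K27me3 domain, so these intervals can be too narrow.

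H3K4me3 is deposited around the start sites of active genes, and H3K36me3 is laid down along gene bodies by a methyltransferase that travels with elongating Pol II. H3K27me3 is the mark of Polycomb repressive complex, covers broad domains over silent developmental genes and is usually scarce where transcription is strong. A stretch with much RNA and few reads of all of the active marks is therefore an unusual combination. RNA-seq reports the transcripts that accumulate, whereas Pol II ChIP reports the polymerase present on the template. The RNA library was made from polyadenylated RNA with random primers and keeps no strand, so a read cannot be assigned to either strand of the template.

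Kept reads numbered between 1250028 and 3013863 in the S2 ChIP libraries and between 1342183 and 3729366 in the bam testis libraries, against 7289715 in the RNA library. At these depths an RNA density of 10 needed 37 reads in a tile. A tile could hold at most 4 H3K4me3 reads, 10 H3K36me3 reads and 6 Pol II reads and still be under 7. A density of 14, used below to call a tile enriched, needed 20 reads of S2 H3K27me3, 27 of bam testis H3K27me3, 10 of bam testis H3K4me3, 12 of bam testis H3K36me3 and 10 of bam testis Pol II. The comparison sets were the 33455 transcribed tiles with at least 1 active mark at 7 or more, the 144387 silent tiles with RNA under 1 and all active marks under 7, and all tiles. Without an annotation of the build of these reads (dm3), tiles are named by position, and the identity of the samples could not be checked against marker genes.

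RNA in the unmarked transcribed tiles had a median density of 18.4, with the middle 50% of tiles between 13.2 and 27.7 and the highest at 197.5. In marked transcribed tiles the median was 33.2. H3K4me3 had no read in 383 of the 762 tiles (50.3%). The median density was 3.32 for H3K36me3 and 4.16 for Pol II in the unmarked tiles, against 33.2 and 11.4 in marked transcribed tiles and 0.664 and 2.08 in silent tiles. The largest of the active marks was Pol II in 389 tiles, H3K36me3 in 326 and H3K4me3 in 46. At the RNA limit, 16 tiles just inside held 37 reads (10.2) and 24 unmarked tiles just outside held 36 (9.88). At the H3K36me3 limit, 75 tiles held 10 reads (6.64), and 83 further transcribed tiles missed the rule only by 1 read (7.30). At the Pol II limit the numbers were 144 tiles with 6 reads (6.23) and 142 with 7 reads (7.27), and at the H3K4me3 limit 10 tiles with 4 reads (6.40) and 6 with 5 reads (8.0). Many members thus lay close to a threshold. Counting error was also wide, since the upper 95% Poisson limits of all 3 marks were under 14 in 703 of the 762 tiles but under 7 in only 22.

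**Figure D1:**
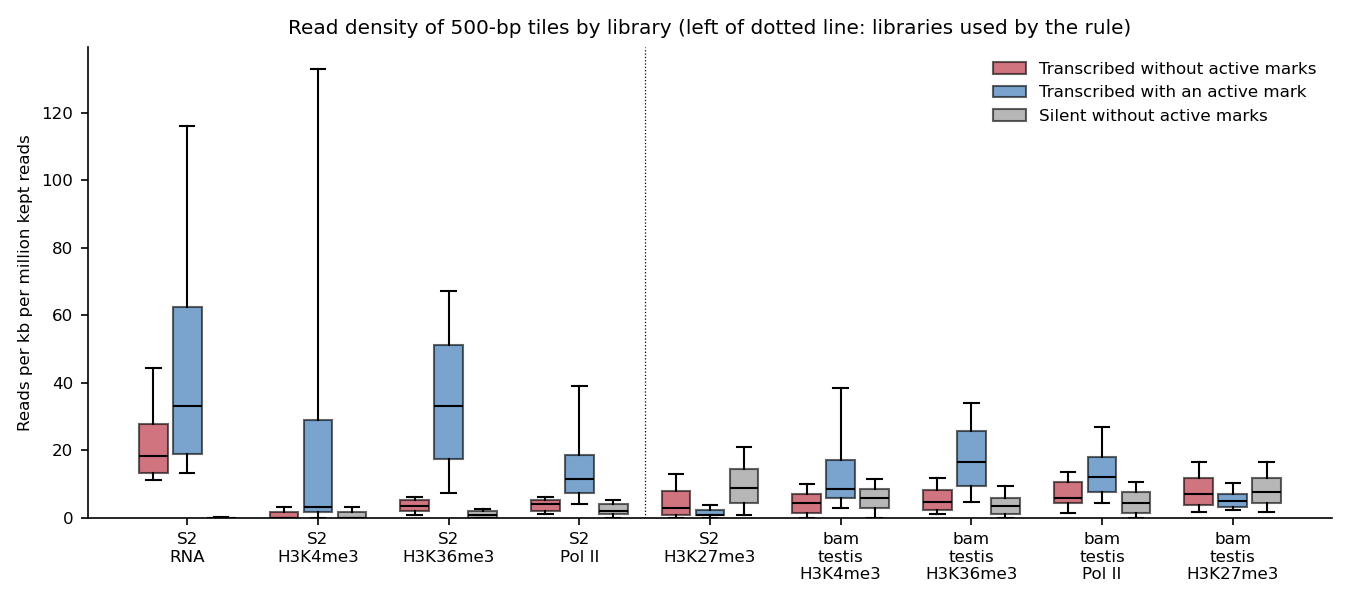
Read density in each of the 9 libraries (reads per kb per 1000000 kept reads) for transcribed tiles without active marks (red, 762 tiles), transcribed tiles with an active mark (blue, 33455) and silent tiles without active marks (grey, 144387). Boxes span the middle 50% of tiles with a line at the median, and whiskers run between the 10th and 90th percentiles. Libraries left of the dotted line chose the tiles. To its right, the S2 H3K27me3 median of the red tiles (2.88) lies between the blue (0.72) and the grey (8.63).

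The rule found fewer tiles the more RNA there was. Of transcribed tiles with RNA between 10 and 20, 4.48% lacked active marks (421 of 9389), against 2.38% between 20 and 40 (254 of 10659), 0.844% between 40 and 80 (70 of 8290) and 0.289% at 80 or more (17 of 5879). The 5 runs with the highest RNA were all single tiles. The tile at chrX:17065501-17066000 held 720 RNA reads, a density of 197.5, and its neighbours had 0.82 and 5.21. In the same tile S2 H3K4me3 was 0, H3K36me3 3.32, Pol II 5.20 and H3K27me3 1.44, while bam testis H3K4me3 was 8.53, H3K36me3 4.69, Pol II 5.96 and H3K27me3 2.15. It was thus an isolated RNA peak under 14 in all 8 ChIP libraries, and none of the 20 tiles within 5 kb reached an RNA density of 10. Bam testis H3K4me3 and Pol II were above the means of all X tiles (4.26 and 5.16), and the other ChIP libraries were below theirs. The tile at chrX:8770501-8771000 had an RNA density of 185.2 with read 5′ ends within 187 bp, and S2 Pol II of 5.20. Unlike the first peak it lay in a transcribed neighbourhood, with 7 of the 20 flanking tiles transcribed, the highest of them at 456.5. Next came chr3L:5562001-5562500 with an RNA density of 144.0, chr3R:5058001-5058500 with 119.6 and chrX:4592001-4592500 with 116.6. All 3 had an active tile, meaning one with an S2 active mark at 14 or more, within 3.0 kb. The last carried H3K36me3 at 6.64, just inside the limit.

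Unmarked transcribed tiles were spread unevenly over the arms. The X arm held 330 of them, 5.17% of its transcribed tiles (4.65 to 5.74), whereas the autosomal arms held 432, or 1.55% (1.41 to 1.70). Arm 2R held 116, 2L 71, 3L 98 and 3R 147, shares between 1.23% and 1.77% of transcribed tiles. On arm 4 none of 392 transcribed tiles qualified, a count of 0 that allows a share of up to 0.765%. Mean read density over all tiles was itself lower on X than on the autosomal arms in all 8 ChIP libraries. The ratio of these means was 0.621 for S2 H3K4me3, 0.573 for S2 H3K36me3, 0.718 for S2 Pol II and 0.507 for S2 H3K27me3, and between 0.494 and 0.682 in bam testis, against 0.866 for RNA. S2 cells and testes are male, with fewer copies of X than of each autosome. With the active marks of X divided by these ratios, an alternative chosen after seeing the data, 115 X tiles remained members, 1.80% (1.5 to 2.16). The ratios were not the same in silent tiles, where S2 H3K36me3 was higher on X (1.31) than on the autosomal arms (1.13), a ratio of 1.16, with 0.773 for S2 H3K4me3 and 0.742 for S2 Pol II. Scaled by the silent-tile ratios, likewise chosen after seeing the data, 284 X tiles remained members, 4.45% (3.97 to 4.98). The share on X thus lay within counting error of the autosomal share under the first scaling and above it under the second. Shares in the unused libraries are given below for X and the autosomal arms as well as over all arms.

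**Figure D2:**
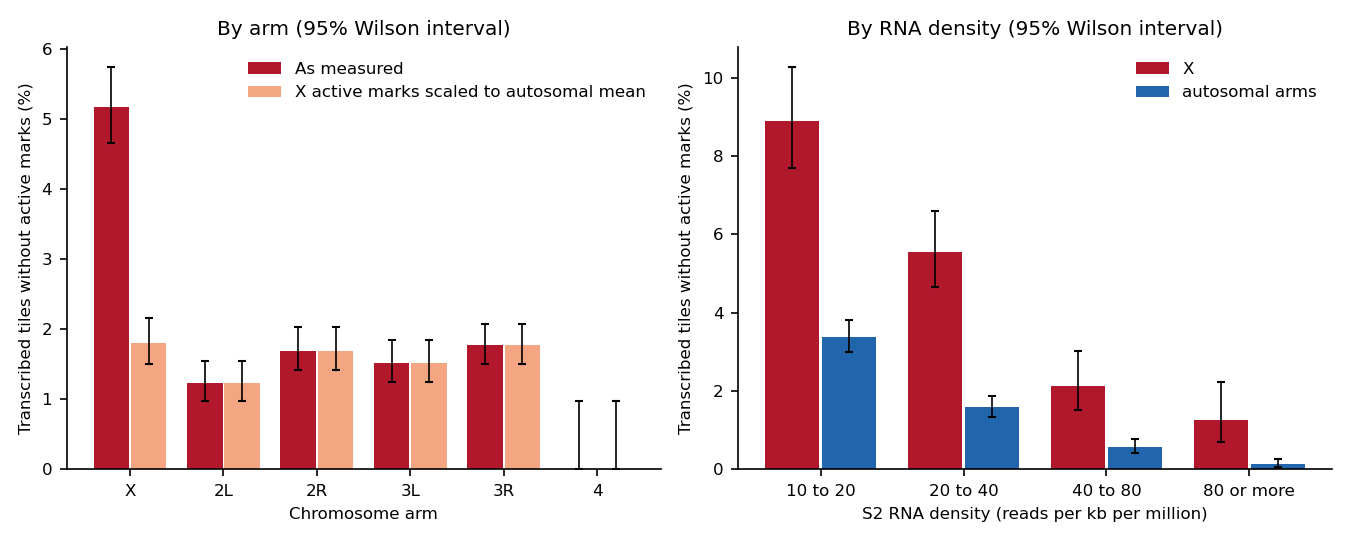
Left, share of transcribed tiles (%) that lacked active marks on each chromosome arm, as measured (red) and with the active marks of X divided by their ratio of X to autosomal mean density (light red). Right, the same share by S2 RNA density on X (red) and the autosomal arms (blue). Bars are shares and error bars 95% Wilson intervals. X stands at 5.17% as measured and 1.80% scaled, and on both X and autosomes the share falls with RNA density.

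The 762 tiles formed 610 runs of adjacent tiles, of which 501 were single tiles and 26 had 3 or more. Run length is shown because a single tile can hold RNA from the tip of a transcript. A long run holds several kb of RNA with few reads of the marks. The longest run, chrX:19671501-19675500, spanned 8 tiles, or 4.0 kb. Its RNA lay between 12.4 and 42.0 in the single tiles, with a density of 21.0 over the run, where S2 H3K4me3 was 1.60, H3K36me3 2.24, Pol II 3.25 and H3K27me3 6.12 (4.75 to 7.75). In bam testis the run had H3K4me3 of 3.20, H3K36me3 of 4.10, Pol II of 5.77 and H3K27me3 of 4.89. It belonged to a transcribed stretch of 11 tiles, and H3K4me3 of 44.8 and Pol II of 30.1 stood within 5 kb. The 6 tiles of chr3R:14950001-14953000 had RNA of 14.5, 13.7, 12.9, 14.3, 10.4 and 10.2, and here the whole transcribed stretch was unmarked. S2 H3K27me3 in these tiles was 14.4, 18.0, 16.6, 7.92, 13.0 and 7.92. In bam testis H3K27me3 was 15.6, 20.9, 22.5, 18.8, 18.8 and 21.5, so that all 6 tiles were enriched there and 3 in S2 cells. The nearest tile with an active mark at 14 was 5.5 kb away.

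Next in length were 3 runs of 5 tiles. The run chr2R:20175501-20178000 had an RNA density of 42.0, with S2 H3K27me3 of 8.20 and bam testis H3K27me3 of 12.8 (10.6 to 15.3), and its strongest flanking tile carried Pol II of 101.8. The run chrX:12723501-12726000 had RNA of 26.2 and S2 H3K27me3 of 10.1 (7.85 to 12.7), and its nearest active tile was 19.0 kb away. The run chrX:5600501-5603000 had RNA of 13.3, S2 H3K27me3 of 9.79 (7.60 to 12.4) and bam testis H3K27me3 of 10.3 (8.34 to 12.6), with 4 more unmarked transcribed tiles within 5 kb. Set against the mean S2 H3K27me3 of all X tiles (4.46), both X runs were high for their chromosome, although the largest value in a single tile was 18.0 in one and 10.8 in the other.

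The question of what stood in place of the active marks was put to H3K27me3 of S2 cells, which the rule did not use. Of the 762 unmarked transcribed tiles 71 were enriched (9.32%, 7.45 to 11.6), against 1.30% of marked transcribed tiles (1.18 to 1.43), 27.1% of silent unmarked tiles (26.8 to 27.3) and 19.9% of all tiles tested. The share was thus above that of marked transcribed tiles and below that of the genome. On X it was 1.82% (6 of 330, 0.836 to 3.91), against 0.479% of marked, 7.18% of silent and 5.15% of all tiles of X. On the autosomal arms it was 15.0% (65 of 432, 12.0 to 18.7), against 1.48% of marked, 31.8% of silent and 23.25% of all tiles there. The order of the sets was the same on X and autosomes, although on X the interval of the unmarked tiles was wide. The median density over all arms was 2.88, against 0.72 in marked and 8.63 in silent tiles. No H3K27me3 read was found in 124 unmarked tiles (16.3%), against 24.6% of marked tiles and 13.8% of all tiles. At 7 or more were 28.6% of the unmarked transcribed tiles, against 44.75% of all tiles, so most tiles of both sets were under 7. On X 13.0% of the unmarked tiles were at 7 or more, against 24.9% of all X tiles, with medians of 1.44 and 2.88. On the autosomal arms 40.5% were, against 49.3% of all tiles there, with medians of 5.04 and 6.48.

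No trend of H3K27me3 with RNA was resolved among these tiles. S2 H3K27me3 was enriched in 9.26% of tiles with RNA between 10 and 20 (6.85 to 12.4), 10.6% between 20 and 40 (7.41 to 15.0), 5.71% between 40 and 80 (2.24 to 13.8) and 1 of 17 tiles at 80 or more, and these intervals overlapped. On X the shares were 1.19%, 3.33% and then no tile in either upper class, and on the autosomal arms 14.6%, 17.2%, 10.3% and 16.7%. Among marked transcribed tiles the same shares were 2.12%, 1.47%, 0.827% and 0.409%. The median RNA of the 71 enriched tiles was 18.1, and that of the 691 others 18.4.

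The highest S2 H3K27me3 of any unmarked transcribed tile was 32.4 in a pair of tiles at chr3R:4211501-4212500, which had RNA of 31.3 and 38.7. Over the pair H3K27me3 was 23.7 (18.4 to 30.2) in S2 cells and 18.8 (14.6 to 23.7) in bam testis. The pair lay in the largest group of unmarked transcribed tiles, 12 tiles within 19.5 kb at chr3R:4205001-4224500, counting members no more than 5 kb apart. Across this group RNA lay between 10.2 and 38.7, S2 H3K27me3 between 5.04 and 32.4 and bam testis H3K27me3 between 3.22 and 22.5, with 5 of the 12 tiles enriched in S2 cells and 6 in bam testis. None of the 12 had an active mark at 14 in bam testis.

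A site on 2R combined high RNA with high H3K27me3 in both samples. The tile at chr2R:18934501-18935000 had an RNA density of 99.0 (361 reads), S2 H3K27me3 of 31.7 (44 reads, 23.0 to 42.5) and bam testis H3K27me3 of 58.5 (109 reads, 48.0 to 70.5), the highest of all unmarked transcribed tiles in bam testis. S2 H3K4me3 was 3.20, H3K36me3 1.99 and Pol II 6.23 in this tile, and bam testis H3K4me3 was 14.2, H3K36me3 5.86 and Pol II 5.96. The RNA covered 5 adjacent tiles at 19.2, 110.8, 99.0, 59.8 and 31.0, of which the third and the last qualified. Pol II stood at 40.5 in the first of these tiles and between 6.23 and 13.5 in the rest. H3K27me3 was enriched in 17 of the 20 surrounding tiles in S2 cells and in 16 of them in bam testis, so the transcribed stretch lay inside a broad H3K27me3 domain in both samples. The last tile, chr2R:18935501-18936000, had RNA of 31.0 and H3K27me3 of 30.2 in S2 cells and 27.9 in bam testis.

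The pair of tiles at chr2R:10084501-10085500 had the lower RNA density of 13.0, with H3K27me3 of 26.98 (21.2 to 33.8) in S2 cells and 31.9 (26.4 to 38.2) in bam testis. H3K27me3 reached 57.6 in S2 cells and 60.1 in bam testis within 5 kb, and no other transcribed tile lay there. The last of the 5 runs with the highest S2 H3K27me3, chr2R:16167001-16167500, had the 5′ ends of all its 57 RNA reads within 48 bp, so its RNA density of 15.6 rests on one short spot.

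H3K27me3 of bam testis was enriched in 130 of the 762 tiles (17.1%, 14.6 to 19.9), against 3.96% of marked transcribed tiles, 15.2% of silent tiles and 12.5% of all tiles tested. On the autosomal arms the share was 27.1% (117 of 432, 23.1 to 31.5), above the 18.0% of silent tiles there (17.8 to 18.2) and the 4.69% of marked ones. All autosomal tiles stood at 14.7%. On X the share was 3.94% (2.32 to 6.62), against 3.33% of silent, 0.660% of marked and 2.74% of all tiles. Tiles that lacked active marks in S2 cells despite their RNA were thus more often enriched for H3K27me3 in bam testis than either comparison set on the autosomes. On X the interval also held the shares of silent tiles and of all tiles.

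H3K27me3 of the S2 and bam testis libraries tended to be enriched at the same tiles. Of the 71 unmarked transcribed tiles with S2 H3K27me3 at 14 or more, 43 reached 14 in bam testis (60.6%, 48.9 to 71.1), against 87 of the 691 others (12.6%, 10.3 to 15.3). Over all tiles the same shares were 41.7% and 5.24%. On the autosomal arms they were 64.6% (52.5 to 75.1) and 20.4% (16.6 to 24.9) for the unmarked transcribed tiles, against 42.7% and 6.24% of all autosomal tiles. Of the 124 tiles with no S2 H3K27me3 read none reached 14 in bam testis, which allows a share of up to 2.42%. Of these 124, 89 were on X, where only 3.94% of the unmarked transcribed tiles and 2.74% of all tiles reached 14. The same share among all tiles with no S2 H3K27me3 read was not examined. Enrichment in bam testis alone was seen in 87 tiles (11.4%, 9.35 to 13.9) and in S2 cells alone in 28 (3.68%, 2.55 to 5.26). In silent tiles the balance was the other way, with 4.07% enriched in bam testis alone and 16.0% in S2 cells alone, as it was over all tiles with 4.20% and 11.6%. The 2 libraries were scaled only by their own totals, and the difference between samples was not tested.

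**Figure D3:**
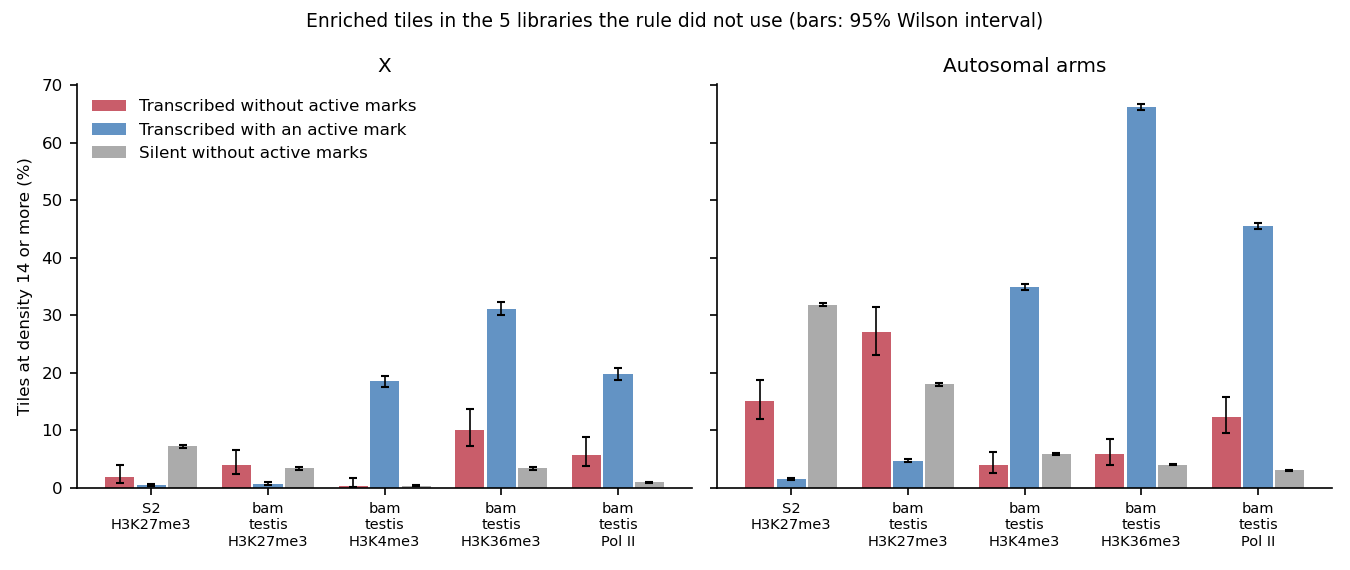
Share of tiles (%) at a density of 14 or more in the 5 libraries that the rule did not use, on X (left) and the autosomal arms (right). Red bars are transcribed tiles without active marks, blue bars transcribed tiles with an active mark and grey bars silent tiles without active marks, with 95% Wilson intervals. On the autosomal arms bam testis H3K27me3 is the one library in which red (27.1%) exceeds both blue (4.69%) and grey (18.0%).

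Active marks of bam testis reached 14 in a minority of these tiles, although many tiles held them at 7 or more. Pol II was at 7 or more in 48.3% (43.95% of all tiles), H3K36me3 in 35.7% (39.5%) and H3K4me3 in 29.8% (46.2%). At least 1 of bam testis H3K4me3, H3K36me3 and Pol II reached 14 in 129 of the 762 tiles (16.9%, 14.4 to 19.8), against 79.6% of marked transcribed tiles, 10.2% of silent tiles and 28.2% of all tiles tested. By target, H3K4me3 reached 14 in 18 tiles (2.36%, 1.5 to 3.70), against 32.0% of marked tiles, 4.77% of silent tiles and 10.6% of all tiles. H3K36me3 did so in 58 (7.61%, 5.93 to 9.71), against 59.9%, 3.88% and 16.3% of the same sets. Pol II did so in 72 (9.45%, 7.57 to 11.7), against 40.9%, 2.61% and 13.2%. All 3 shares were far below those of marked tiles. Because unmarked transcribed tiles were concentrated on X, where densities were lower, the comparison with silent tiles was repeated by chromosome. Bam testis Pol II was above the silent tiles on X (5.76%, 3.72 to 8.82, against 0.916%) and on the autosomal arms (12.3%, 9.503 to 15.7, against 3.01%). Neither share was above that of all tiles, 6.005% on X and 14.9% on the autosomal arms. H3K36me3 was above the silent tiles on X (10.0%, 7.21 to 13.7, against 3.34%). On the autosomal arms its interval reached the silent share (5.79%, 3.95 to 8.40, against 4.01%). Over all tiles the H3K36me3 share was 11.3% on X and 17.5% on the autosomal arms. H3K4me3 did not differ from silent tiles beyond counting error on either, with 1 of 330 X tiles (0.303%, 0.0535 to 1.70, against 0.346%) and 3.94% of autosomal tiles (2.47 to 6.21, against 5.82%). Over all tiles the H3K4me3 shares were 3.86% on X and 12.15% on the autosomal arms. No unmarked transcribed tile had all 3 marks at 14, a count of 0 that allows a share of up to 0.394%. Of marked transcribed tiles 11.4% did, of all tiles 2.25% and of silent tiles 0.0803%, a share that the count of 0 does not exclude. On X the share with any active mark in bam testis was 14.5% (11.2 to 18.8), against 54.6% of marked, 4.46% of silent and 18.0% of all tiles. On the autosomal arms it was 18.8% (15.3 to 22.7), against 85.2%, 11.5% and 30.6%. In 15 tiles an active mark and H3K27me3 were both at 14 in bam testis (1.97%, 1.20 to 3.22), close to the 1.32% of marked transcribed tiles, 1.61% of silent tiles and 1.79% of all tiles. None of the 5 unused libraries reached 14 in 494 tiles (64.8%, 61.4 to 68.1), against 17.3% of marked transcribed tiles, 61.9% of silent tiles and 50.9% of all tiles. On X this held for 264 of 330 tiles (75.4% to 83.96%), against 86.9% of silent tiles and 75.65% of all tiles. On the autosomal arms it held for 53.2% (48.5 to 57.9), against 55.97% and 45.2%.

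A few unmarked transcribed tiles carried strong marks in bam testis. At chr3R:10726501-10727000, bam testis H3K4me3 was 99.5 (70 reads, 77.6 to 125.8), Pol II 28.3, H3K36me3 11.7 and H3K27me3 11.3. In S2 cells the same tile had RNA of 45.5, H3K4me3 of 1.60 (1 read), H3K36me3 of 2.65, Pol II of 6.23 and H3K27me3 of 7.20. The bam testis H3K4me3 peak covered the tile and the one before it (72.5), where S2 H3K4me3 was 0, and the tile after it had 24.2. Both samples had H3K4me3 elsewhere within 5 kb, up to 86.7 in bam testis and 153.6 in S2 cells. This tile had the highest bam testis H3K4me3 of the 762, and the next was at 32.7.

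That next tile, chr3L:19471001-19471500, had bam testis Pol II of 16.4 and RNA of 11.5 in S2 cells, with a low median RNA read score of 62.5. At chr3R:22057501-22058500 the first tile of the pair had bam testis H3K4me3 of 18.5, Pol II of 28.3 and H3K27me3 of 25.7, so H3K4me3 and H3K27me3 were both enriched. S2 H3K27me3 was 2.878 and 3.598 in the 2 tiles, and RNA was 20.9 and 25.5. At chr3L:5807501-5808000 and chr3R:5060001-5060500, bam testis H3K4me3 was 18.5 in each and H3K36me3 19.9 and 17.6, with RNA of 13.4 and 12.9.

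Among the runs with the highest bam testis H3K27me3, chr2R:15111001-15112000 had Pol II at 14 or more in both of its tiles in the same sample, and H3K36me3 in one. Its tiles had bam testis H3K27me3 of 46.1 and 26.8, H3K36me3 of 11.7 and 22.3 and Pol II of 28.3 and 16.4. S2 H3K27me3 was 2.16 and 0.72 in these tiles, and RNA was 20.9 and 41.2. The tile at chr3R:17084001-17084500 had RNA of 10.4, near the limit, H3K27me3 of 32.2 in bam testis (24.6 to 41.4) and 15.1 in S2 cells (9.35 to 23.1), and no bam testis active mark above 4.47. At chr2L:16404501-16406000 RNA was 46.4, 54.0 and 34.8 in 3 adjacent tiles. S2 H3K27me3 there was 7.20, 14.4 and 21.6, bam testis H3K27me3 was 11.3, 22.0 and 29.0, and the nearest active tile was 17.0 kb away.

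**Figure D4:**
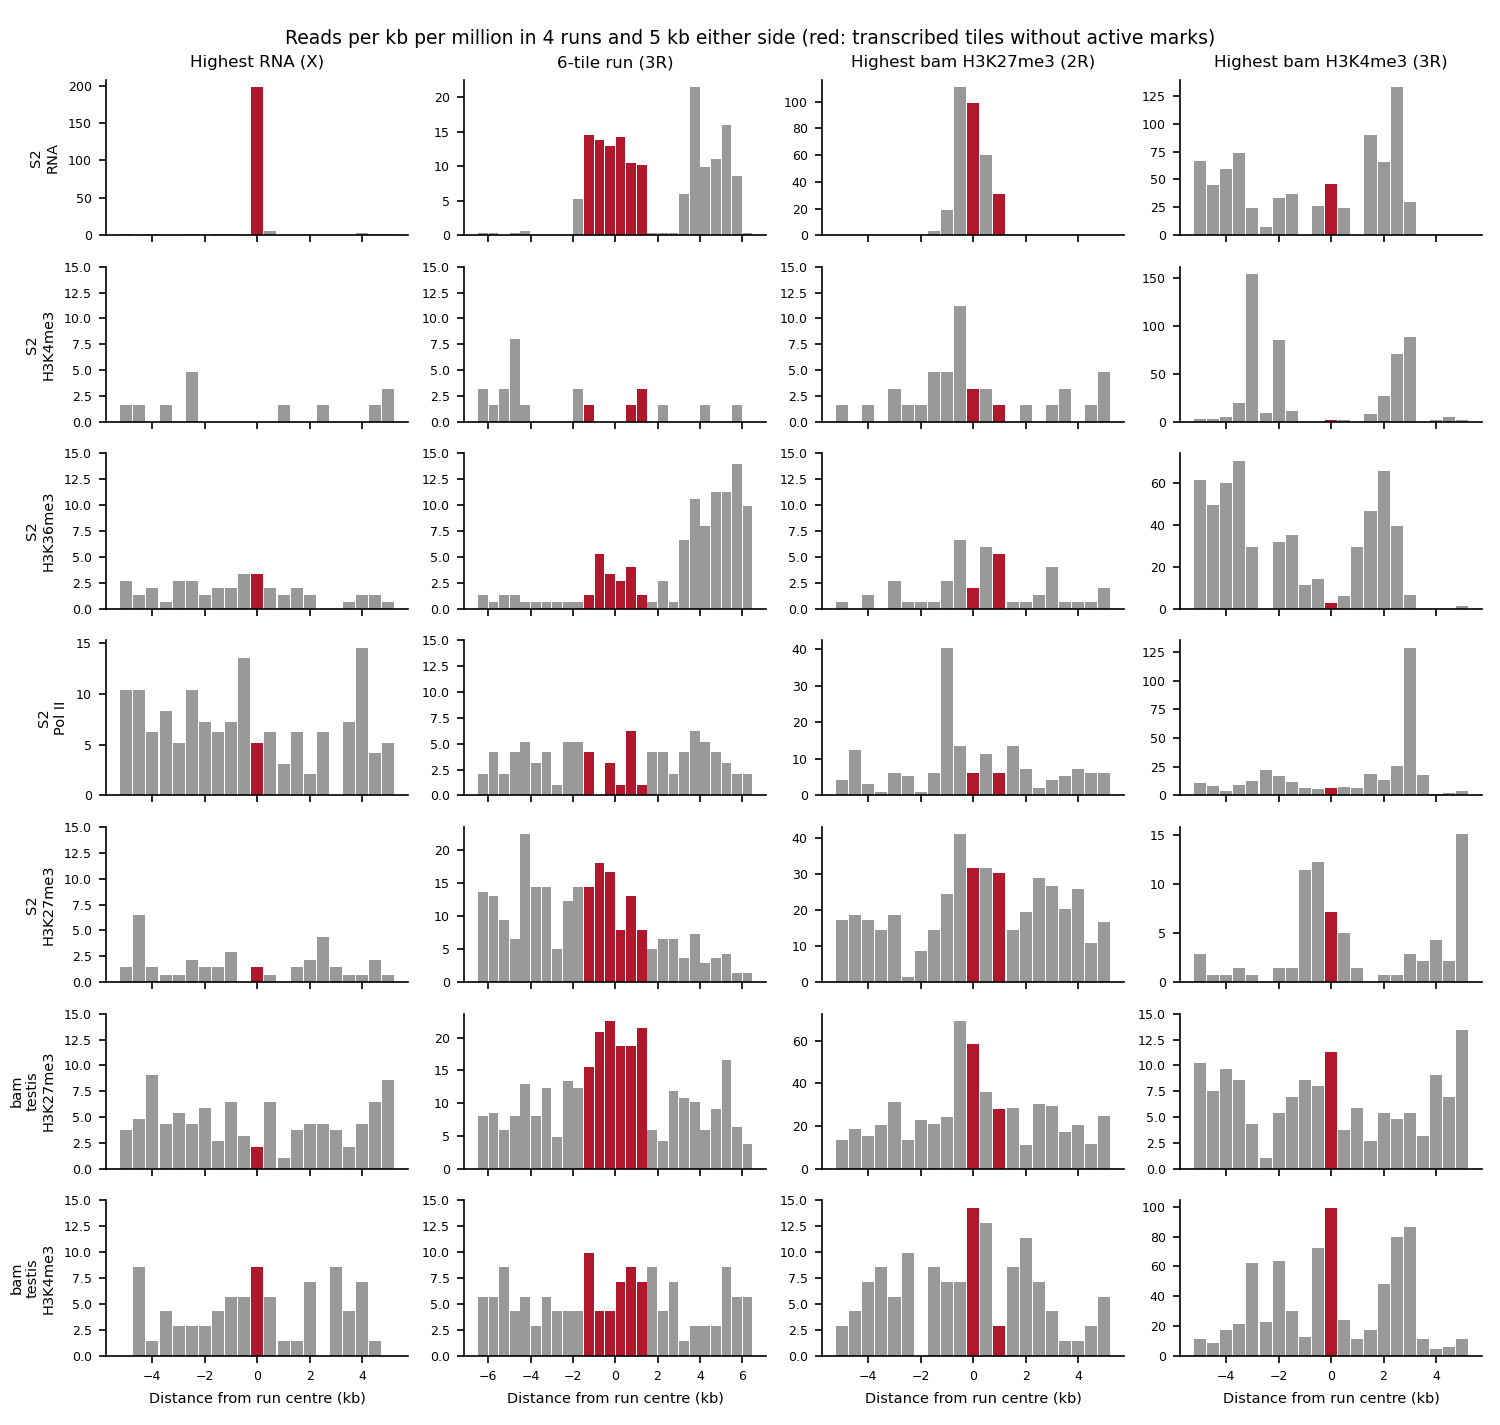
Read density (reads per kb per 1000000, linear axes, 7 of the 9 libraries from top to bottom) by distance from the run centre (kb) in 4 runs and 5 kb on either side, 1 bar per 500-bp tile. Red bars are transcribed tiles without active marks, grey bars are other tiles, and axes differ between panels. From left to right the runs are the X tile with the highest RNA (197.5), the 6-tile run of 3R, the 2R tile with the highest bam testis H3K27me3 (58.5) and the 3R tile with the highest bam testis H3K4me3 (99.5).

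RNA usually continued beyond an unmarked transcribed tile. An adjacent tile was transcribed at 596 of 762 tiles (78.2%, 75.2 to 81.0), against 94.3% of marked transcribed tiles, 0.598% of silent tiles and 19.1% of all tiles tested. Of the 762, 166 were lone transcribed tiles (21.8%, against 5.74% of marked ones), 366 stood at an end of a longer transcribed stretch (48.0%, against 34.9%) and 230 inside one (30.2%, against 59.4%). Unmarked tiles were thus more often lone or terminal. The median length of the transcribed stretch that held a tile was 3 tiles, against 7 for marked tiles. Of 8107 transcribed stretches 556 held an unmarked tile and 209 consisted of such tiles alone. The same stretch held a tile with an active mark at 14 in 295 of the 762 cases (38.7%, 35.3 to 42.2).

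Active marks lay within a few kb of most of these tiles, but beside only some of them. An adjacent tile that was itself a member could not be active, because the rule kept its marks under 7. A directly adjacent tile had an S2 active mark at 14 or more at 204 of the 762 tiles (26.8%, 23.8 to 30.0), close to the 29.7% of all tiles tested and above the 4.22% of silent tiles. Marked transcribed tiles, which were themselves chosen on these marks, had such a neighbour in 95.9%. The neighbour carried H3K36me3 in 117 cases (15.4%, against 20.2% of all tiles), Pol II in 103 (13.5%, against 18.0%) and H3K4me3 in 37 (4.86%, against 11.4%). An active tile stood on both sides of 38 tiles (4.99%, 3.66 to 6.77), against 18.5% of all tiles. The nearest active tile was at a median distance of 1.5 kb, against 8.5 kb for silent tiles and 3.5 kb for all tiles. In the distance for all tiles, an active tile counted as its own nearest. Another active tile stood within 5 kb of 643 tiles (84.4%, 81.6 to 86.8), against 99.7% of marked transcribed tiles, 35.97% of silent tiles and 57.1% of all tiles. X and the autosomal arms gave like shares of adjacent active tiles, 26.97% and 26.62%, set against 26.7% and 30.4% of all tiles there.

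Mean density was then taken by distance from the tiles. Pol II averaged 3.89 in the unmarked transcribed tiles, where the rule kept it low, 6.74 at 0.5 kb, 10.1 at 2.0 kb and 10.2 at 5.0 kb. H3K36me3 averaged 5.73, 7.14 and 7.92 at the same distances and H3K4me3 2.54, 6.38 and 7.85. The means over all tiles were 8.08 for Pol II, 8.04 for H3K36me3 and 8.21 for H3K4me3. The pooled means mix X with the autosomal arms. On X the means at 2.0 kb were above those of all X tiles, with Pol II at 9.25 against 6.12, H3K36me3 at 6.86 against 5.01 and H3K4me3 at 6.50 against 5.49. On the autosomal arms Pol II was above the mean of all tiles (10.8 against 8.53) and the others below it, H3K36me3 at 7.36 against 8.74 and H3K4me3 at 6.28 against 8.84. RNA averaged 24.2 in the tile, where the rule required 10 or more, so a fall away from it was partly set by the selection. It was 12.6 at 2.0 kb and 12.1 at 5.0 kb, both above the mean of all tiles (8.25).

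H3K27me3 was slightly higher in the tiles than beside them. In S2 cells it averaged 5.02 (4.89 to 5.16) in the unmarked transcribed tiles and 4.18 at 2.0 kb, and in bam testis 8.37 (8.22 to 8.52) and 6.54. An adjacent tile was enriched for S2 H3K27me3 at 105 of the 762 (13.8%, 11.5 to 16.4), against 1.86% of marked transcribed tiles, 41.9% of silent tiles and 30.2% of all tiles. This share was 2.73% on X and 22.2% on the autosomal arms, against 9.06% and 35.0% of all tiles there. In bam testis, H3K36me3 averaged 5.97 in the tile and 8.12 at 2.0 kb, and Pol II 7.57 and 8.93. The bam testis active marks thus had a dip at the same place, although the rule did not use them. Silent tiles, also chosen for low S2 active marks, had a smaller dip. Their bam testis H3K36me3 was 4.58 in the tile against 5.32 at 2.0 kb, with Pol II at 4.96 against 5.54. In marked transcribed tiles both were higher in the tile, H3K36me3 at 18.3 against 15.5 and Pol II at 15.2 against 14.3. A dip was thus not particular to transcribed tiles, and the part of the selection on S2 marks in it was not tested.

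**Figure D5:**
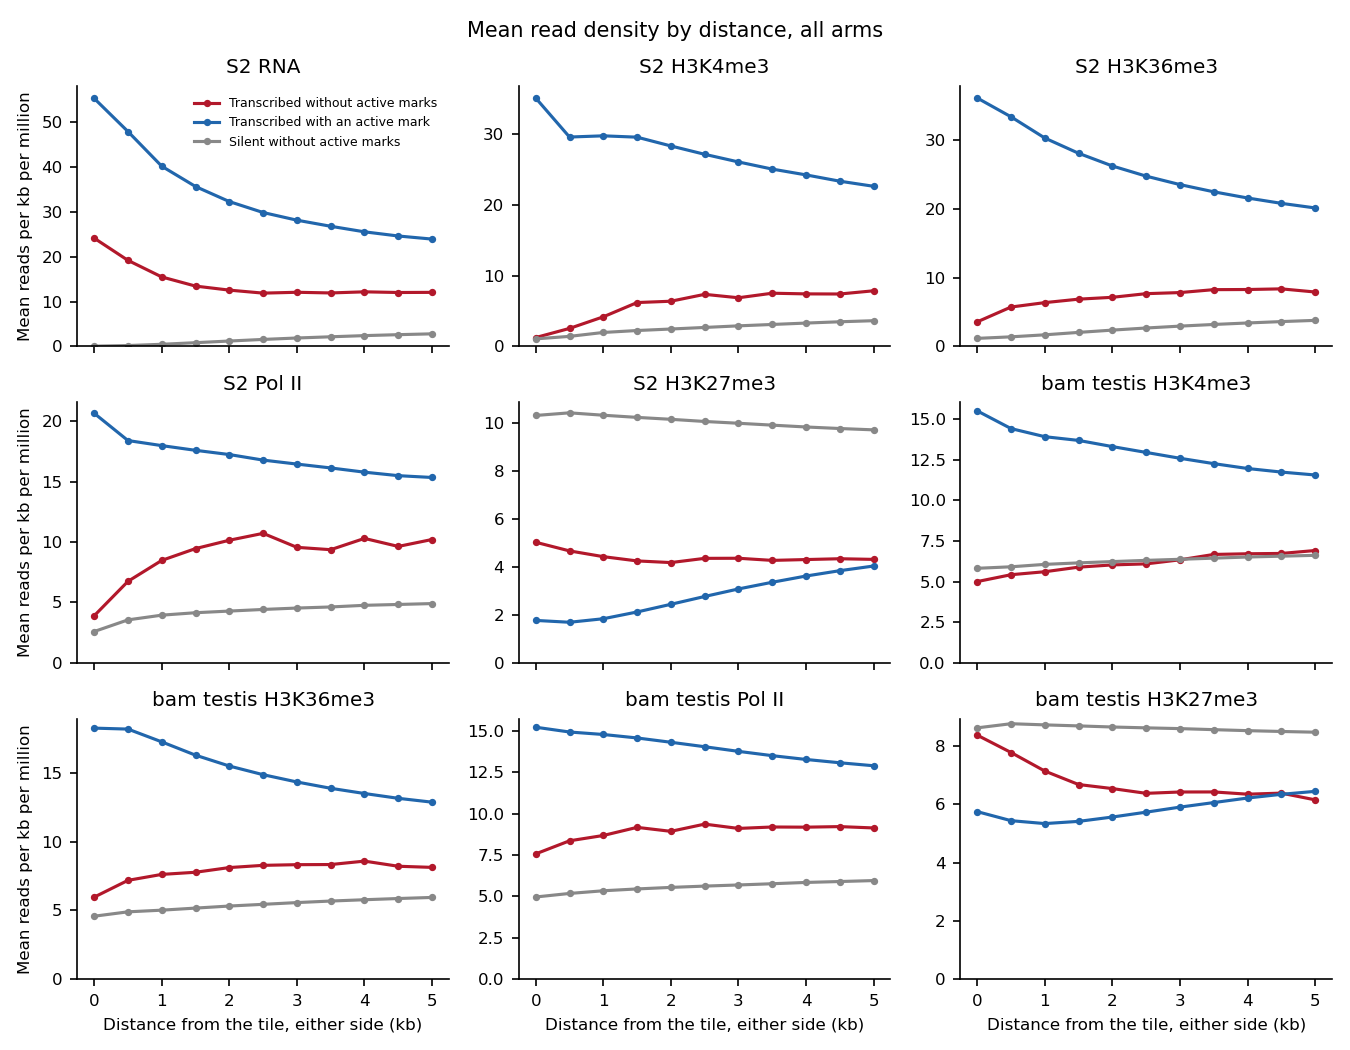
Mean read density (reads per kb per 1000000 kept reads) in the 9 libraries by distance from the tile (kb, both sides pooled) for transcribed tiles without active marks (red), transcribed tiles with an active mark (blue) and silent tiles without active marks (grey). Points are means over tiles of all arms. Red S2 Pol II averages 3.89 in the tile, where the rule fixed it, and 10.1 at 2.0 kb, and red bam testis H3K27me3 averages 8.37 and 6.54 at the same places.

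No tile with an active mark at 14 lay within 5 kb of 119 of the 762 tiles, in 80 runs. Weaker active marks could still lie nearer, as S2 H3K36me3 of 10.6 did beside the strongest of the 80 runs. This run, chr3L:2435001-2435500, had RNA of 77.6, S2 H3K27me3 of 11.5 (6.58 to 18.7) and bam testis H3K27me3 of 16.6 (11.3 to 23.6). It shared a stretch of 4 transcribed tiles, with RNA up to 106.2, with the third of these runs, chr3L:2436001-2436500 (RNA of 56.8, S2 H3K27me3 of 5.76 and bam testis H3K27me3 of 9.12). The second, chr2R:6878001-6879000, had RNA of 62.3 and 12.4 in its tiles, S2 H3K27me3 of 10.1 in both and bam testis H3K27me3 of 21.5 and 11.8. The fourth was the 2L run of 3 tiles described above. In the last of these, chr2L:22203501-22204000, 178 RNA reads (48.8) had their 5′ ends within 63 bp and had a median score of 16 in the RNA file, and none of the 4 bam testis libraries had a read.

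The RNA file gives each read a score, whose meaning the sources do not define, with a median of 132 over the reads of the typical unmarked or marked transcribed tile. In 27 of the 762 tiles the median was under 60 (3.54%, 2.45 to 5.11), against 0.272% of marked tiles. The RNA reads started within a span under 100 bp in 19 tiles (2.49%, 1.60 to 3.86), against 0.269%, and 11 tiles met both. Of the 27 low-scoring tiles 14 had fewer than 10 reads over the 5 unused ChIP libraries, where 29 of all 762 did. The part of read placement in these tiles was not tested. Over all 762 tiles the RNA reads had a median of 57 start positions within 462 bp and 50.4% of reads on the plus strand, and over the 727 with a median score of 60 or more and a span of 100 bp or more 58 positions within 464 bp, against 97 positions within 486 bp in marked tiles.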

How the data were processed

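ChIP-seq of H3K4me3, H3K36me3, Pol II and H3K27me3 in S2 cells and bam testis and RNA-seq of S2 cells were used, with 1 library each. The authors aligned reads to dm3 with ELAND, retained uniquely mapped ones, and deposited the position and strand of each read without normalization. The deposited RNA file holds positions and a score per read, used here to describe the reads and in 1 alternative. The methods describe 25-bp reads, and whether they cover the RNA reads, which are 36 bp in the file, is not stated. At most 3 reads with identical position and strand were kept. ChIP 5′ ends were shifted 80 bp inward, and RNA reads were not shifted. Reads were counted in 500-bp tiles of 2L, 2R, 3L, 3R, 4 and X and divided by kb and 1000000 kept reads, with totals taken over all sequences in the file (93.5% to 99.3% of kept reads lay on the arms).

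Tiles at 14 or more were called enriched. Adjacent member tiles were joined into runs. Runs were named by rule, the 5 with the highest RNA in 1 tile, the longest, the highest S2 H3K27me3, bam testis H3K4me3 and bam testis H3K27me3, and the highest RNA with no active tile within 5 kb, 27 runs in all. The 3R group of 12 tiles was singled out after its values were seen. The members, thresholds and comparison sets were chosen with earlier results of these data known. Tiles are not replicates, and no test was made. Counting scripts were tested on simulated data. The alternatives, of which 3 were chosen after seeing the data, are given in the closing section. Python 3.11.15, numpy 2.4.6, pandas 2.3.3, scipy 1.17.1 and matplotlib 3.10.9 were used. Sequences other than the 6 arms were left out, and no annotation of dm3 was used.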

Additional observations from a re-analysis of the deposited data

Results flagged for a closer look

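The tiles described above lie on the 6 arms. On the heterochromatin sequences of dm3, which no comparison used, 144 of 18551 tiles had an S2 RNA density of 10 or more, and 1 of these had all active marks of S2 cells under 7. It is listed because it is a signal outside the sequences analysed. It is a single tile, and no explanation was examined.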

How the results depend on the processing

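Of the values above, 7 were recomputed under 12 alternatives. The number of unmarked transcribed tiles, 762, stayed within 1.5 times under 9 of them (547 to 956). It was 341 with RNA of at least 20, 157 with active marks under 3.5 and 3478 with active marks under 14. The share with S2 H3K27me3, 9.32%, stayed within its interval under 9 alternatives. It was 12.0% with at most 1 copy of a read, 6.47% with active marks under 14 and 12.6% with the active marks of X scaled, an alternative added after seeing the data. The share beside an active tile, 26.8%, was 30.8% with RNA of at least 20, 12.1% with active marks under 3.5, 56.3% with active marks under 14 and 39.8% with every ChIP library thinned to the shallowest. The share with an active mark in bam testis, 16.9%, was 20.5%, 6.37%, 30.6% and 20.4% under the same settings in that order. Leaving out the shift, moving the tiles by 250 bp, requiring 10 reads over the unused ChIP libraries or 20 RNA start positions, keeping only RNA reads with a score of 100 or more or scaling X by silent-tile ratios (both added after seeing the data) moved none of these 4 values beyond these limits. The shares with bam testis H3K27me3 (17.1%, and 27.1% on the autosomal arms) and the share of members on X (43.3%) were added after seeing the data. The first was 12.2% to 22.9%, the second 21.7% to 31.8% and the third 21.0% to 49.7% over the alternatives, and 10, 10 and 6 of the 12 stayed within the interval. The lowest share on X came with X scaled by its ratio over all tiles.

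The values rest on 1 library per target. No paired analysis was possible because no group has replicates. At 4 to 10 reads per limit, a tile within counting error of a threshold can change sets. The choice of 7 as the upper limit of the active marks decides how many tiles qualify, since 142 transcribed tiles missed it by 1 Pol II read. The name of a tile as unmarked says only that few reads were found at this depth. No input library was used here, and the part of mappability in these values was not tested.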
